A study of Saccharomyces cerevisiae with 4 samples.

Results

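The methionine, sulfur and S-adenosylmethionine genes of budding yeast, Saccharomyces cerevisiae, were compared between arrays labelled hst3hst4 and arrays labelled wild-type. The set holds 37 genes, listed by their known part in sulfate assimilation, in methionine and cysteine synthesis, in the S-adenosylmethionine cycle, in the uptake of methionine-type compounds, or in the control of these genes. Each gene was read from the brightest of the probe sets that the platform annotation assigns to it alone. All 37 had such a probe set, of 5656 genes in all, and 35 were bright enough to be tested. SUL1 and MET2 were not.

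The labels name a mutant strain, YCB600, and a wild-type strain, YCB617, both in the FY background. Both were grown in the rich medium YPD, in 2 independent cultures each, and every culture was hybridised to its own one-colour array. The labels give neither the alleles nor any other marker of the strains, nor the density at which cultures were harvested. The proteins Hst3 and Hst4 are sirtuins, which use NAD to remove acetyl groups and are best known for acting on lysine 56 of histone H3. The comparison asks how transcript levels differ in the double mutant.

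Yeast takes up sulfate, activates it with ATP and reduces it to sulfide, which is joined to O-acetylhomoserine to give homocysteine. Homocysteine is methylated to methionine or passed through cystathionine to cysteine. Methionine is turned into S-adenosylmethionine, the main methyl donor of the cell, and the S-adenosylhomocysteine left after methyl transfer is split back to homocysteine. Many of these genes are switched on by the activator Met4, which reaches DNA with Cbf1, Met28, Met31 and Met32, and is held in check by the ubiquitin ligase subunit Met30 when sulfur compounds are plentiful, as they are in rich medium.

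The deposited values are array signals in arbitrary units, scaled to a common average on each array. They allow a probe set to be compared between arrays, not with another probe set. Differences are given as hst3hst4 minus wild-type on the scale log2(signal + 3.3), and an adjusted p is from limma with Benjamini-Hochberg adjustment over 7420 probe sets. A gene was called at an adjusted p under 0.05. The median signal per array ran from 37.5 to 41.2. HST3 gave 0.4 and 0.5 in hst3hst4-labelled cultures and 13.7 and 25.3 in wild-type cultures. HST4 went against the labels, with 38.0 and 39.3 against 3.6 and 0.9. Where its probes lie relative to any deleted part is not given in the sources used here, so every direction below is one between labels. The 3' to 5' signal ratio of the control probe sets, a measure of RNA integrity, was 3.82 and 3.7 against 4.64 and 5.2 for SPT15, the TATA-binding protein gene, 1.73 and 1.78 against 1.7 and 1.88 for actin, and 2.34 and 1.9 against 1.87 and 1.63 for SRB4, a Mediator subunit gene. The ratios of SPT15 were thus lower on the arrays labelled hst3hst4, those of SRB4 higher and those of actin overlapping. Its part in the results was not tested.

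Among the 35 tested genes, 3 fell on the arrays labelled hst3hst4, none rose, and 32 did not pass. Those that fell were MMP1, the S-methylmethionine permease, MET6, the methionine synthase, and SAM2, one of the S-adenosylmethionine synthetases. The falls ran from 1.85-fold for SAM2 to 2.26-fold for MMP1. In that comparison 0.531% of all 5271 genes were called lower and 2.2% were called higher, against 8.57% of these genes called lower. At an unadjusted p under 0.05, 7 of the genes were lower and 2 higher, where 8.97% of all genes were lower and 10.2% higher. The median log2 difference was -0.24 over the 35 genes and -0.01 over all genes tested. Below 0 lay 24 of the 35, against 2724 of all 5271 genes. After scaling on the hybridisation controls the median of the 35 genes was 0.12, while that of all probe sets was 0.32, so the sign of the median depends on the scaling.

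**Figure D1:**
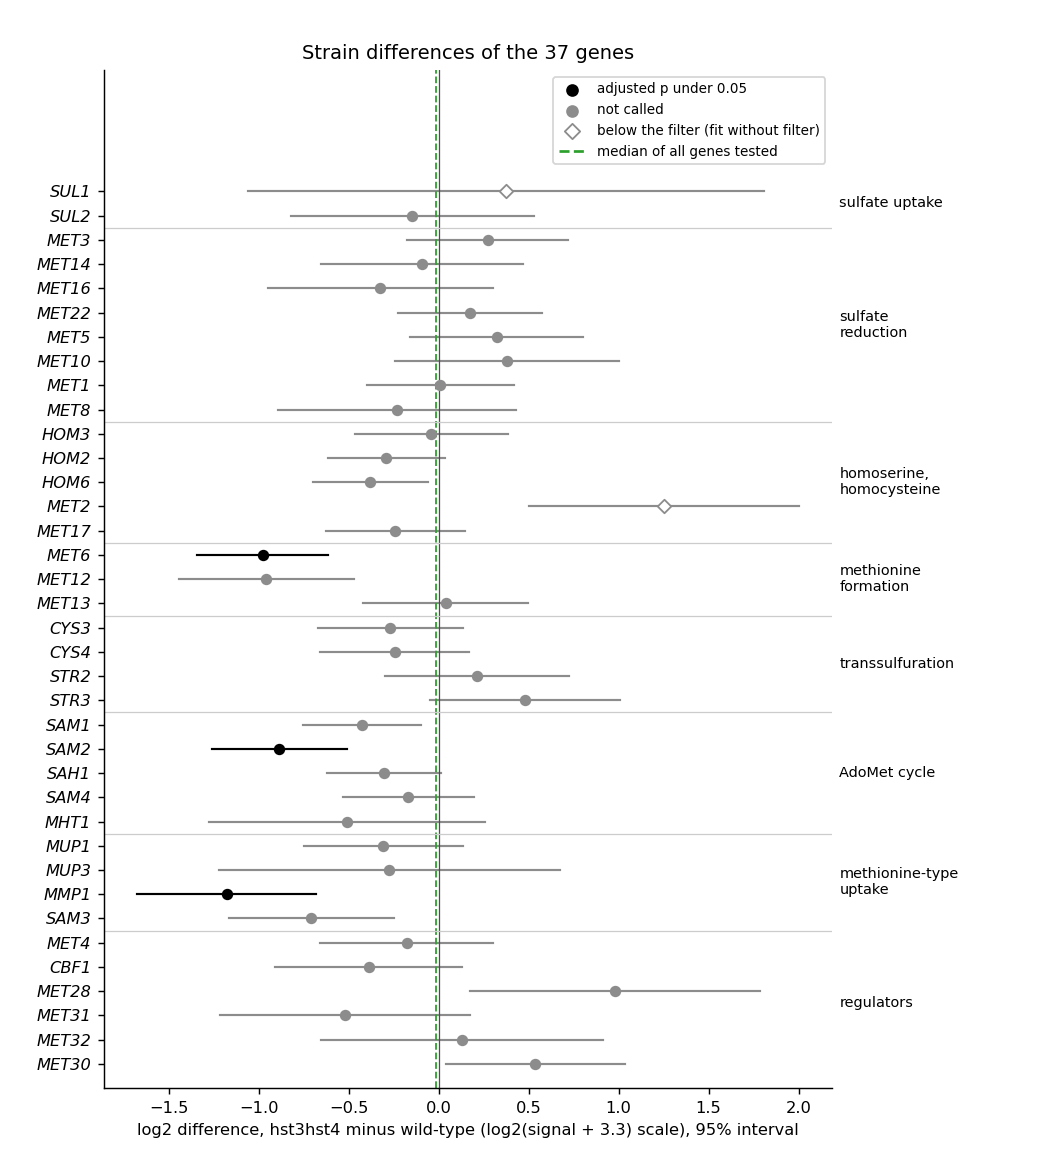
The log2 difference between strains is plotted for each of the 37 genes, grouped by role, with its 95% interval from the limma fit; black marks an adjusted p under 0.05, open diamonds mark SUL1 and MET2, which were too dim to pass the filter and come from a fit without it. The 3 called genes, MMP1, MET6 and SAM2, lie left of 0, and the genes of sulfate activation and reduction lie on both sides of it, from -0.32 to 0.38.

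The sets of arrays did not overlap for 19 of the 35 genes. Both arrays labelled hst3hst4 were below both wild-type arrays for 13 genes (37.1%, against 27.4% of all genes) and above both for 6 genes (17.1%, against 25.1% of all genes). With 2 arrays a strain such a separation is common, and it was therefore not used as a call.

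Both permeases of sulfate were dim. SUL1, a high-affinity permease, had signals of 7.2 and 9.1 in hst3hst4-labelled cultures and 1.6 and 12.5 in wild-type cultures, and SUL2, the other permease, had 18.9 and 24.8 against 30.1 and 19.6. For both permeases the strains overlapped. The SUL2 log2 difference was -0.15 (SE 0.29, adjusted p = 0.818).

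None of the 8 genes of sulfate activation and reduction passed, and none had an unadjusted p under 0.05. Their median log2 difference was 0.09, with 5 above 0 and 3 below. MET3, the ATP sulfurylase that activates sulfate, had signals of 52.5 and 55.4 in hst3hst4-labelled cultures and 46.0 and 42.2 in wild-type cultures, a log2 difference of 0.27 (95% interval -0.17 to 0.72). MET14, the kinase of the next step, had 55.1 and 56.2 against 47.4 and 74.8, so that the wild-type arrays bracketed the others. MET16, the reductase that releases sulfite, had 24.9 and 35.1 against 31.4 and 45.6, which overlap.

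MET5 and MET10 encode the subunits of sulfite reductase, which makes sulfide. MET5 had signals of 168.8 and 186.4 in hst3hst4-labelled cultures and 118.0 and 169.0 in wild-type cultures (log2 difference 0.32, adjusted p = 0.431). MET10 had 32.0 and 44.5 against 23.5 and 33.9 (log2 difference 0.38, adjusted p = 0.469). Both 95% intervals included 0, with lower bounds of -0.16 for MET5 and -0.24 for MET10.

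MET1 and MET8 act in the synthesis of siroheme, the cofactor of sulfite reductase, and MET22 is the phosphatase that clears the nucleotide by-product of sulfate reduction. MET1 had the smallest difference of the 35 genes in size, with signals of 71.9 and 76.4 against 74.0 and 73.3 (log2 difference 0.01, 95% interval -0.40 to 0.42). MET8 had a log2 difference of -0.23 and MET22 one of 0.17. The 95% intervals of MET3, MET14, MET16, MET22, MET5, MET1 and MET8 lay within a change of 2-fold in either direction, and that of MET10 reached it.

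Of the genes that supply homoserine and homocysteine, HOM2, HOM3, HOM6 and MET17 were tested and none passed. All 4 had log2 differences below 0, with a median of -0.27, although after scaling on the hybridisation controls HOM2, HOM3 and MET17 lay above 0, at 0.07, 0.31 and 0.12. That scaling raised the median of all probe sets to 0.32, and all 4 genes stayed below it. HOM6, the homoserine dehydrogenase, had signals of 1834.6 and 1633.3 in hst3hst4-labelled cultures and 2102.2 and 2421.0 in wild-type cultures, a log2 difference of -0.38 (SE 0.14, adjusted p = 0.185). HOM2, the aspartic semialdehyde dehydrogenase, had 491.4 and 481.9 against 580.9 and 610.9 (log2 difference -0.29, adjusted p = 0.294). For both the strains did not overlap. HOM3, the aspartate kinase that opens the branch, had 113.6 and 107.2 against 102.4 and 126.1 (log2 difference -0.04).

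MET17, the O-acetylhomoserine sulfhydrylase that takes up sulfide, had signals of 738.0 and 822.1 against 807.9 and 1048.9. The lower wild-type array thus fell between the others, and the log2 difference was -0.24 (adjusted p = 0.464). MET2, the homoserine acetyltransferase that makes its substrate, had 13.3 and 17.6 in hst3hst4-labelled cultures and 5.2 and 3.9 in wild-type cultures, and its mean fell below the filter. In the limma fit without the filter its log2 difference was 1.25 (SE 0.30, adjusted p = 0.146). It was the highest value among the 37 genes, from signals near the floor of the scale.

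Methionine formation held the lowest role median, -0.96 over 3 genes. MET6 had signals of 163.7 and 168.1 in hst3hst4-labelled cultures and 314.8 and 346.3 in wild-type cultures. Means were 165.9 ± 3.11 and 330.6 ± 22.3 (SD, n = 2 each), the log2 difference was -0.98 (SE 0.16, 95% interval -1.34 to -0.62, limma adjusted p = 0.0226), and wild-type culture 2 minus culture 1 was 0.14. MET6 lies on chromosome 5, from 339864 to 342167 in the R64 assembly. Its call was lost without hst3hst4 replicate 1 (adjusted p = 0.257) and without hst3hst4 replicate 2 (adjusted p = 0.243), at log2 differences of -0.960 and -0.998.

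MET12 and MET13 encode methylenetetrahydrofolate reductases, isozymes that make the methyl donor used by Met6. MET12 had signals of 64.8 and 91.5 in hst3hst4-labelled cultures and 144.7 and 161.1 in wild-type cultures, with no overlap. Its log2 difference was -0.96 (SE 0.21, adjusted p = 0.0616), just short of the threshold. Leaving out 1 array in turn gave MET12 values from -1.20 to -0.72. MET13 had 70.7 and 63.8 against 58.3 and 73.0, which overlap, and a log2 difference of 0.04 (95% interval -0.42 to 0.50).

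The log2 ratio of MET12 to MET13 within an array was -0.12 and 0.50 in hst3hst4-labelled cultures and 1.27 and 1.11 in wild-type cultures. The ratio was therefore lower in both of the former, with a mean shift of -0.997 in log2 units. The exact permutation test gave a two-sided p of 0.333, the smallest that 2 arrays against 2 allow. The ratio was computed for 7 gene pairs, chosen after their values were seen, so it is given as a description. In 5 of the 7 pairs the strains did not overlap. Among these were MMP1 to SAM3 (shift -0.47), MHT1 to SAM4 (-0.34) and MET31 to MET32 (-0.65). The strains overlapped for MUP1 to MUP3 and for MET10 to MET5. How often the ratios of other gene pairs separate was not computed. Of single genes, 27.4% were lower and 25.1% higher on both arrays labelled hst3hst4 than on both wild-type arrays.

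In the transsulfuration genes, which link homocysteine and cysteine, 0 of 4 passed and none had an unadjusted p under 0.05. CYS3, the cystathionine gamma-lyase, had signals of 1907.3 and 1423.5 in hst3hst4-labelled cultures and 1813.3 and 2171.8 in wild-type cultures. CYS4, the cystathionine beta-synthase, had 1193.2 and 852.2 against 1232.6 and 1159.1. In both genes the array of hst3hst4 culture 2 was the lowest and the strains overlapped, with log2 differences of -0.27 and -0.24. STR2, the cystathionine gamma-synthase of the opposite direction, had a log2 difference of 0.21. STR3, the cystathionine beta-lyase, had 41.0 and 33.1 against 25.3 and 25.7 with no overlap, and a log2 difference of 0.48 (SE 0.23, adjusted p = 0.288).

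All 5 genes of the S-adenosylmethionine cycle were lower on both arrays labelled hst3hst4 than on both wild-type arrays, as were 27.4% of all genes, and 1 of them, SAM2, passed. After scaling on the hybridisation controls the log2 differences of SAH1 and SAM4 were above 0, at 0.06 and 0.19, and below the median of all probe sets, 0.32. SAM2 had signals of 155.2 and 137.7 against 282.4 and 263.4. Means were 146.4 ± 12.4 and 272.9 ± 13.4 (SD, n = 2 each), a log2 difference of -0.89 (SE 0.16, 95% interval -1.26 to -0.51, limma adjusted p = 0.0366). SAM2 lies on chromosome 4, from 1453310 to 1454464. Its call was lost without either array labelled hst3hst4, with adjusted p = 0.257 without replicate 1 and 0.305 without replicate 2.

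SAM1 encodes the other S-adenosylmethionine synthetase, a close paralog of SAM2. It had signals of 417.3 and 432.4 in hst3hst4-labelled cultures and 590.7 and 553.5 in wild-type cultures, a log2 difference of -0.43 (SE 0.14, adjusted p = 0.164). One more probe set is annotated to both genes. It gave 2605.1 and 2502.8 against 3248.5 and 3704.6, a log2 difference of -0.44 (adjusted p = 0.117). All 3 probe sets were lower, and since the paralogs are alike, how much each transcript adds to each signal is uncertain. The log2 ratio of SAM2 to SAM1 was -1.41 and -1.63 against -1.06 and -1.06, a mean shift of -0.46, with the same exact permutation p of 0.333.

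SAH1, the hydrolase of S-adenosylhomocysteine, had signals of 654.5 and 613.2 against 764.3 and 801.5, a log2 difference of -0.30 (SE 0.14, adjusted p = 0.268). SAM4 and MHT1 encode homocysteine methyltransferases that use S-adenosylmethionine and S-methylmethionine as methyl donors. SAM4 had 248.4 and 282.4 against 303.0 and 293.1 (log2 difference -0.17, adjusted p = 0.587), and a probe set it shares with YMR321C gave -0.33 (adjusted p = 0.275). MHT1 was dim, with 9.9 and 8.6 against 15.2 and 13.9 (log2 difference -0.51, SE 0.33, adjusted p = 0.432). In SAM4 the separation between strains was smaller than the spread between the arrays labelled hst3hst4.

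**Figure D2:**
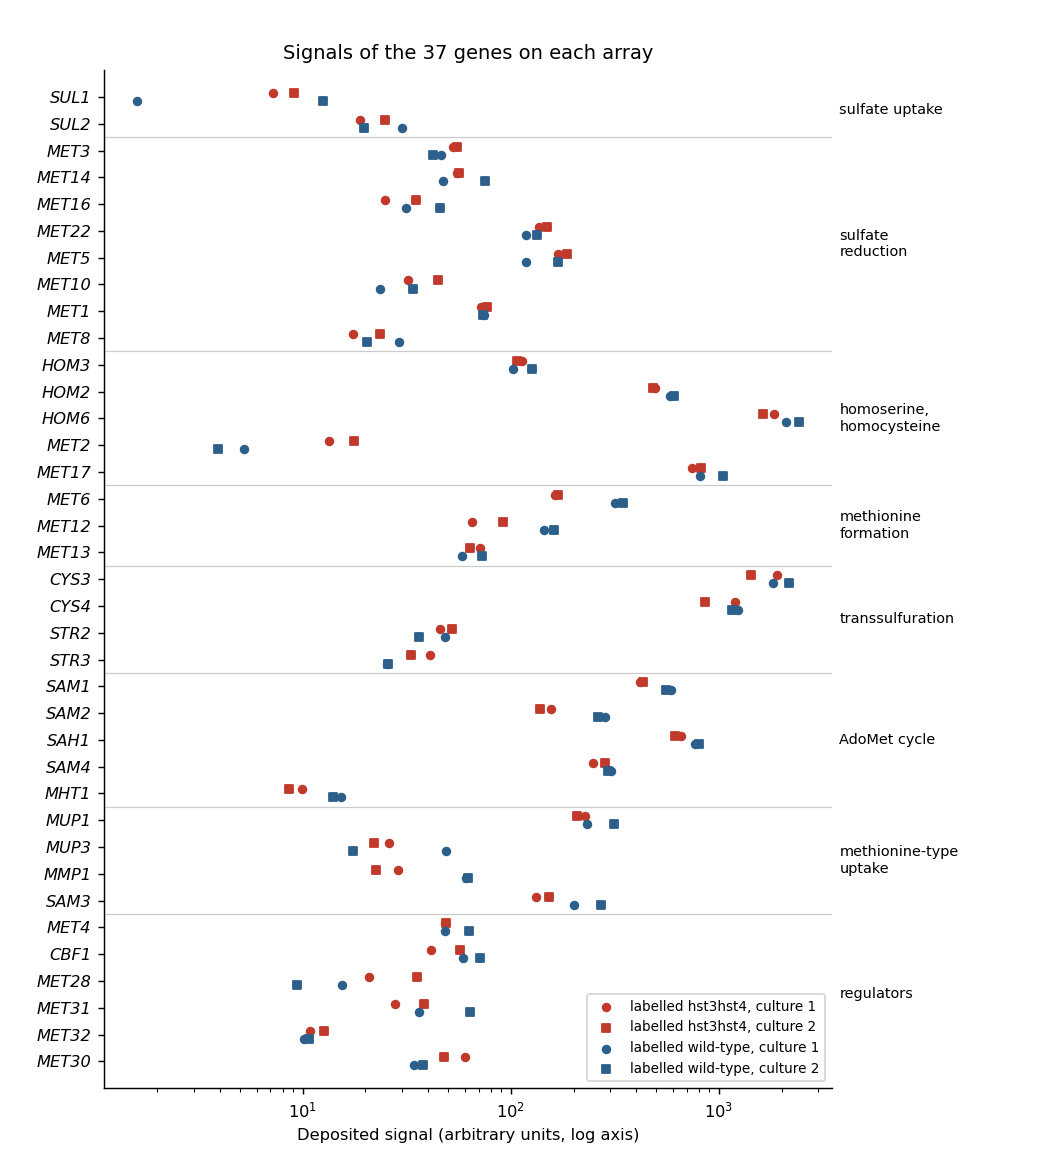
Deposited signals (log axis, arbitrary units) of the 37 genes are shown by role, with red for arrays labelled hst3hst4, blue for wild-type, circles for culture 1 and squares for culture 2. The 5 genes of the S-adenosylmethionine cycle show no overlap between colours, while most genes of sulfate reduction do. Such a separation is common, with 27.4% of all genes lower and 25.1% higher on both arrays labelled hst3hst4. Positions of different genes along the axis are not comparable.

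Among the permeases for methionine-type compounds, MMP1 passed and the other 3 did not. MMP1 had signals of 28.6 and 22.4 in hst3hst4-labelled cultures and 61.1 and 61.9 in wild-type cultures. Means were 25.5 ± 4.38 and 61.5 ± 0.566 (SD, n = 2 each), a log2 difference of -1.18 (SE 0.21, 95% interval -1.68 to -0.68, limma adjusted p = 0.0354). That is a fold of 2.26, and MMP1 ranked 8 of 5271 genes from the lowest difference. Its call was lost without hst3hst4 replicate 1 (adjusted p = 0.217) and without hst3hst4 replicate 2 (adjusted p = 0.287).

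SAM3, the S-adenosylmethionine permease and a relative of MMP1, had 5 probe sets of its own. The brightest gave 132.4 and 152.3 in hst3hst4-labelled cultures and 201.3 and 271.6 in wild-type cultures, a log2 difference of -0.71 (SE 0.20, adjusted p = 0.111). A dimmer one, with 75.7 and 87.1 against 157.5 and 159.8, passed, at -0.94 (adjusted p = 0.0366). Of the others, 2 gave -0.67 (adjusted p = 0.124) and -0.36 (adjusted p = 0.405). The last was below the filter, with signals of 10.4 and 8.6 against 7.5 and 4.2, opposite in direction. On all 4 tested probe sets both arrays labelled hst3hst4 were below both wild-type arrays, as for 27.4% of all genes. These probe sets are annotated to the same gene and were read on the same arrays, so they are not independent. The brightest and the called one carry the suffix with which Affymetrix marks probes that may match several similar transcripts, although the annotation used here gives them SAM3 alone.

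**Figure D3:**
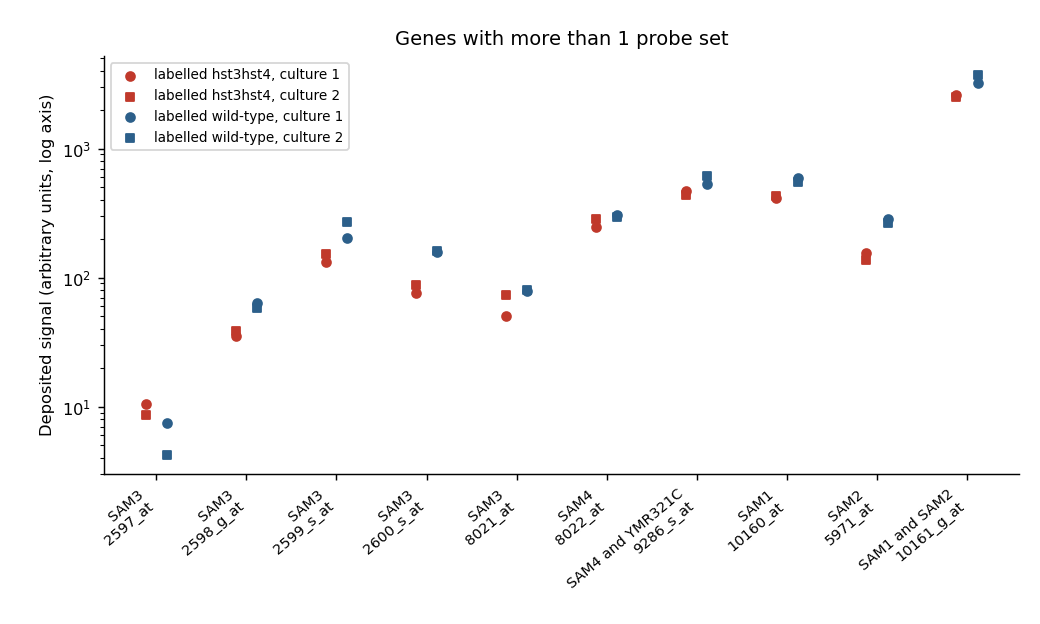
Deposited signals (log axis) are shown for the 10 probe sets of the genes that have more than 1, with red for arrays labelled hst3hst4 and blue for wild-type, circles for culture 1 and squares for culture 2. Red lies below blue on every tested probe set of SAM1, SAM2, SAM3 and SAM4, and above it on the dim SAM3 probe set below the filter. Of all genes, 27.4% were lower on both arrays labelled hst3hst4, and probe sets of the same gene are not independent.

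MUP1, the high-affinity methionine permease, had signals of 225.9 and 208.6 against 231.0 and 313.9 (log2 difference -0.31, adjusted p = 0.41). MUP3, a low-affinity permease, had 25.9 and 22.1 against 48.8 and 17.5. Its wild-type arrays were the highest and the lowest of the 4, differing by -1.33 in log2 units, and its log2 difference of -0.27 turned to 0.39 without wild-type replicate 1. No statement on MUP3 can be drawn at this precision.

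MMP1 and MHT1, which serve S-methylmethionine, are neighbours on chromosome 12, 342 bp apart, and MMP1 starts 17.96 kb from the left end. SAM3 and SAM4, which serve S-adenosylmethionine, are neighbours on chromosome 16, 385 bp apart, and SAM3 starts 22.94 kb from the left end. In each pair the permease had the lower log2 difference and both genes lay below 0, except SAM4 after scaling on the hybridisation controls. Up to 3 tested genes on each side were read for comparison. Around MMP1 none of 6 passed, and apart from MHT1 they ran from -0.11 to 0.96, with GTT2, a glutathione transferase, at the top (adjusted p = 0.053). Around SAM3 none of 3 passed, and SAM4 was the lowest. Around MET6 the 6 neighbours ran from -0.46 to -0.01 and around SAM2 from -0.58 to 1.36, again with none called.

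None of the 6 regulators passed. MET4, the activator, had signals of 48.1 and 48.6 in hst3hst4-labelled cultures and 48.4 and 62.7 in wild-type cultures, a log2 difference of -0.18 (95% interval -0.66 to 0.30). CBF1, its DNA-binding partner, had 41.4 and 57.2 against 59.1 and 70.9 (log2 difference -0.39, adjusted p = 0.375). MET31 and MET32 encode zinc finger proteins that also bring Met4 to DNA. MET31 had 27.6 and 38.1 against 36.0 and 63.9 (log2 difference -0.52, adjusted p = 0.372). Leaving out 1 array in turn gave MET31 values from -0.91 to -0.14. MET32 was dim and close in all arrays, from 10.1 to 12.6.

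MET28 and MET30 leaned the other way. MET28, a leucine zipper cofactor of Met4, had signals of 20.8 and 35.3 in hst3hst4-labelled cultures and 15.5 and 9.4 in wild-type cultures, a log2 difference of 0.98 (SE 0.35, adjusted p = 0.179). Its log2 difference was 1.26 without wild-type replicate 1, and leaving out the other arrays in turn gave values from 0.64 to 1.32. MET30 had 60.5 and 47.6 against 34.1 and 37.9, a log2 difference of 0.54 (SE 0.21, adjusted p = 0.22). For both genes the 2 arrays labelled hst3hst4 lay above the 2 wild-type arrays, as for 25.1% of all genes. Both were called higher when arrays were scaled on the hybridisation controls. That scaling called 15.7% of all probe sets and moved their median to 0.32.

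**Figure D4:**
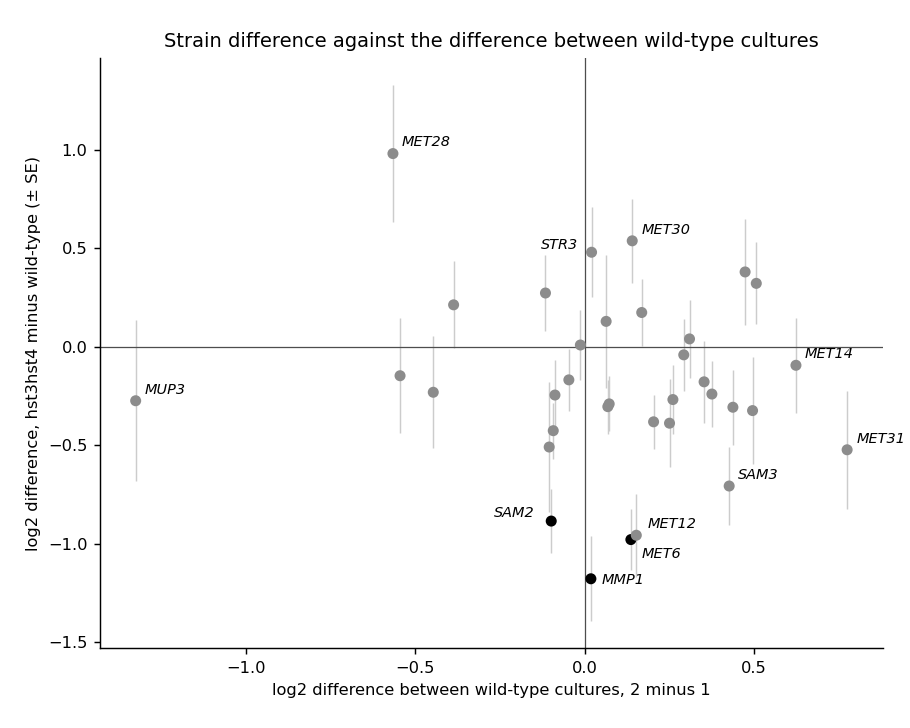
For the 35 tested genes the log2 difference between strains (vertical axis, ± SE) is plotted against that between the wild-type cultures (horizontal axis, 2 minus 1); the wild-type arrays enter both axes. MMP1, MET6 and SAM2, in black, had wild-type cultures within 0.14 of each other, whereas MUP3 and MET31 had cultures -1.33 and 0.77 apart. The fit behind the calls uses this same spread, so the closeness is no separate check on them.

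The cultures of the wild-type strain were not alike on some genes, and their arrays enter all of these values. Culture 2 minus culture 1 had a median of 0.14 in log2 units over the 35 genes and of 0.04 over all genes tested. On 14 environmental stress genes the same difference had a median of -1.01. They were listed because earlier results of these data showed them to differ between the wild-type cultures. That median is thus no independent measure of how far the cultures differ. Of these genes 7 rose on the arrays labelled hst3hst4 (against 2.2% of all genes) and none fell. Their median strain difference was 1.19, and over the 4 pairs of arrays it ran from 0.59 to 2.10. The wild-type arrays behind the listing also enter these 7 calls and this median. Neither is therefore an independent result, and the share of all genes is no fair baseline for them. The part of the culture difference in the values of the methionine genes was not tested. The median strain difference of the 35 genes over the 4 pairs of arrays ran from -0.34 to -0.05. Without wild-type replicate 1, 6 of the 35 genes were called lower and 1 higher, among 11.7% of all probe sets called. Without hst3hst4 replicate 1 or 2, 0 of the 35 were called, among 0.121% and 0.0539% of all probe sets. In each of these fits 1 strain has a single array, which is assumed to vary like the other strain.

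A second list holds genes around the pathway. Of 48 listed, 47 were tested, 1 fell (2.13%, against 0.531% of all genes called lower), 0 rose (against 2.2% of all genes) and 46 did not pass, with a median log2 difference of -0.07. Whether this list differs from the 35 genes was not tested. Before adjustment 4 were lower and 5 higher at a p under 0.05, where 8.97% of all genes were lower and 10.2% higher. The one that fell was OPT1, which encodes a glutathione transporter, with signals of 192.2 and 209.3 in hst3hst4-labelled cultures and 354.6 and 365.0 in wild-type cultures. Its log2 difference was -0.83 (SE 0.15, limma adjusted p = 0.0366), a fold of 1.78. The call was lost without either array labelled hst3hst4.

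The next lowest of these was SHM2, the cytosolic serine hydroxymethyltransferase that feeds the folate used for methionine synthesis, with signals of 636.4 and 786.6 against 1076.9 and 1050.4 (log2 difference -0.59, adjusted p = 0.0961). At the other end of the tested genes stood GCV1, a subunit of the glycine cleavage complex, with 234.2 and 279.8 against 141.6 and 163.3 (log2 difference 0.74, adjusted p = 0.077). OPI3, a methyltransferase of phosphatidylcholine synthesis that uses S-adenosylmethionine, followed at 0.52 (adjusted p = 0.195). GCV1 and OPI3 thus lay above 0 where SHM2 lay below, and no one of the 3 passed. JLP1, listed but below the filter, had signals of 17.2 and 3.0 against 1.2 and 1.0, near the floor of the scale. In the limma fit without the filter its log2 difference was 1.37 (adjusted p = 0.303), the highest of the listed genes. None of 6 genes for cysteine and glutathione, 8 of methionine salvage, 4 partners of Met30 in its ubiquitin ligase and 3 thioredoxin genes passed. Of all genes only 0.531% were called lower and 2.2% higher, so few calls are to be had in groups of this size.

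**Figure D5:**
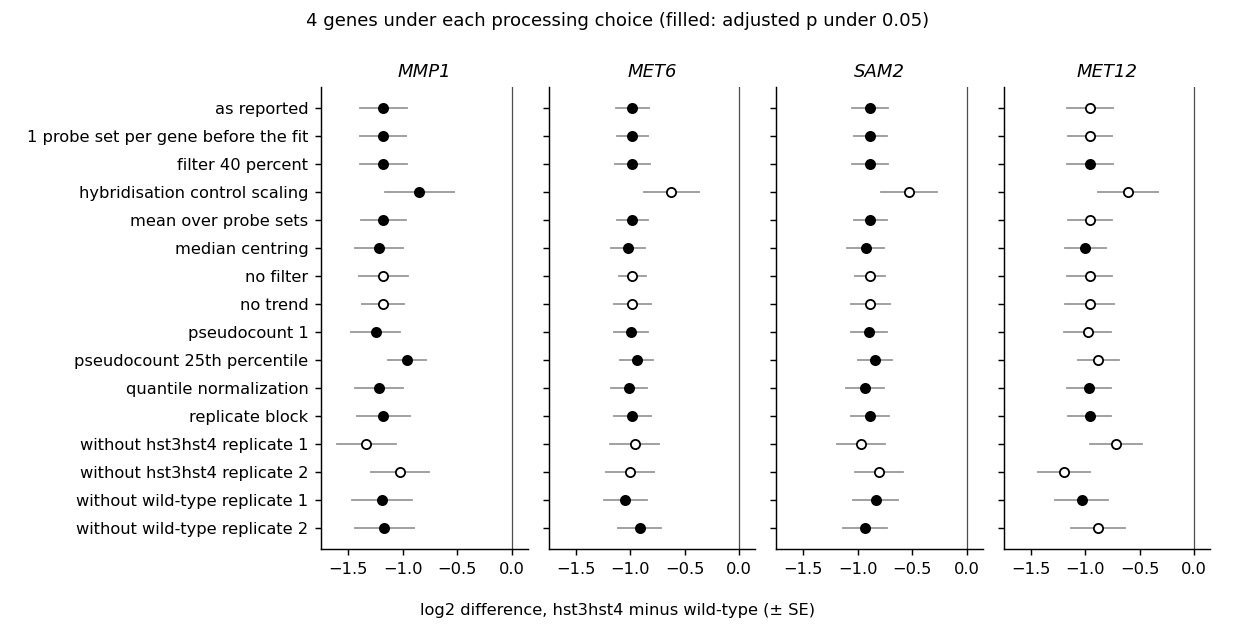
The log2 difference between strains (± SE) of MMP1, MET6, SAM2 and MET12 is shown under each processing choice, filled where the adjusted p was under 0.05. All points lie below 0; calls of MMP1, MET6 and SAM2 were lost without either array labelled hst3hst4, without the filter and without the variance trend, those of MET6 and SAM2 also after scaling on the hybridisation controls, and MET12 passed under 5 of the 15 alternatives.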

How the data were processed

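Per the labels' protocols, total RNA was primed with oligo-dT, amplified once and biotinylated. Priming at the 3' end makes signals depend on RNA integrity. The values are the linear intensity signals the authors deposited per probe set; the submitters' processing notes name GCOS 1.4 and MAS5. Each array had a trimmed mean of 150.2, so changes are relative to the average gene. Of 9275 yeast probe sets, 6504 had 1 gene in the platform annotation, all matched to RefSeq's R64 table; 328 had several genes and 2443 had none listed.

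Signals were taken as log2(signal + 3.3), 3.3 being the 10th percentile, which understates changes of dim genes. The 20% dimmest probe sets (below a signal of about 8.97) were left out and 7420 tested with limma 3.58.1 under R 4.3.3 (lmFit, then eBayes with a mean-variance trend), two-sided, threshold 0.05. The script that runs this fit was tested on simulated data. The fit has 2 residual and 5.75 prior degrees of freedom. The number of arrays limits the precision. The cultures being independent, p-values cover the spread between cultures. Same-numbered arrays did not deviate together (correlation -0.04), so numbers were not taken as pairs. Members and lists were chosen with earlier results of these data known. All 37 members are named. Of the other pathway genes, those called, the 2 highest and 2 lowest of those tested, and JLP1, which was below the filter, are named. The gene pairs and neighbours were chosen after the values were seen. Promoter sequences were not analysed here.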

Additional observations from a re-analysis of the deposited data

How the results depend on the processing

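The 3 calls became 0 when dim probe sets were kept and 0 without the variance trend, where calls over all probe sets went from 2.64% to 0.388% and 0.512%; the log2 differences of MMP1, MET6 and SAM2 stayed the same in both. Leaving out 1 array in turn gave 0 to 7 calls, 0 without either array labelled hst3hst4 (0.121% and 0.0539% of all probe sets called), 7 without wild-type replicate 1 (11.7%) and 3, as in the full fit, without wild-type replicate 2 (4.54%), and a median log2 difference from -0.33 to -0.14. Each of these fits takes its residual spread from 1 strain alone, and without either array labelled hst3hst4 the log2 differences of those 3 genes ran from -1.33 to -0.80. Scaling on the hybridisation controls moved that median to 0.12 and the median of all probe sets to 0.32; of its 3 calls MMP1 was lower, MET28 and MET30 higher, and MET6 (adjusted p = 0.0715) and SAM2 (0.153) were lost. That scaling called 15.7% of all probe sets. The replicate block gave 4 calls, the same 3 genes and MET12, among 4.62% of all probe sets called. For the other pathway genes the single call became 0 without the filter or without the trend. It became 2 with the replicate block, where 4.62% of all probe sets were called. After scaling on the hybridisation controls it became 5, all higher, with a median of 0.29, where 15.7% of all probe sets were called. Leaving out 1 array gave these genes a median from -0.11 to -0.03. The cause was not tested.

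Of 517 values of the 35 genes under the alternatives, 25 changed sign, none of them of a called gene and none past the threshold. Scaling on the hybridisation controls gave 14 of them: SUL2 0.17, MET14 0.25, MET16 0.006, MET8 0.087, HOM3 0.31, HOM2 0.07, MET17 0.12, CYS3 0.094, CYS4 0.12, SAH1 0.057, SAM4 0.19, MUP1 0.051, MUP3 0.049 and MET4 0.16. MET1 was -0.033 after median centring and -0.004 after quantile normalization, and MET13 -0.002 after median centring. Leaving out 1 array gave ranges of -0.42 to 0.13 for SUL2, -0.41 to 0.22 for MET14, -0.033 to 0.051 for MET1, -0.19 to 0.11 for HOM3, -0.12 to 0.19 for MET13 and -0.94 to 0.39 for MUP3.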
